A study of Sus scrofa with 16 samples.

Results

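Prolactin and growth hormone are made by the largest populations of secretory cells of the anterior pituitary, and their genes were among the most abundant transcripts of the pig gland. PRL (ENSSSCG00000039721) and GH1 (ENSSSCG00000034212) were taken from the count table by their identifier and position, 2 of its 25880 genes, and their level, their share of the counts, the ratio between them and their relation across glands were followed in every library. GH1 lies on chromosome 12 of Sscrofa11.1, from 15065024 to 15068818 as the deposited annotation gives it and from 15064965 to 15066698 in the shorter RefSeq model. PRL lies on chromosome 7, from 17451367 to 17463771 in RefSeq. In RefSeq no other gene overlaps either of them. The nearest neighbours were a long noncoding RNA 96455 bases from PRL and another 2450 bases from GH1.

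Pituitaries came from 16 females of the Puławska breed, a native Polish pig, of which 8 had a low feed conversion (LFC, replicates 1 to 8) and 8 a high feed conversion (HFC, replicates 9 to 16), meaning less or more feed eaten for each unit of weight gained. The labels name no treatment, and per the study's methods the gilts were unrelated, came from different farms and were kept on the same feed at one test station. The labels give an age of 3 months for every animal, whereas the methods give a higher age at slaughter. For this breed the study reports more days in test and a lower daily gain in HFC than in LFC gilts. It also reports a higher daily feed intake in HFC. Feed conversion cannot be told apart from these traits in the comparisons below. Each gland was homogenised whole per the study's methods, so that the anterior, intermediate and neural lobes were not separated. The part of each lobe in a library was not measured. Fewer cells of a type cannot be told apart from less RNA per cell. Total counts were 10.97 to 23.06 M per library.

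Growth hormone is released by somatotrophs under the drive of hypothalamic growth hormone-releasing hormone and the brake of somatostatin, and acts on liver, muscle and fat, in part through IGF1. Prolactin is released by lactotrophs, which hypothalamic dopamine holds back through the D2 receptor, while thyrotropin-releasing hormone and oestrogen stimulate them. Both hormones belong to one protein family, signal through related cytokine receptors, and come from cells that depend on the transcription factor PIT-1, encoded by POU1F1. The third main cell type of that lineage, the thyrotroph, makes thyrotropin.

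PRL had fewer counts than GH1 in most glands, and its level spread more widely than that of GH1 in HFC but not in LFC. It took 3.68 ± 2.49% of the counts in LFC and 1.10 ± 1.24% in HFC (SD, n = 8 each), whereas GH1 took 5.64 ± 3.78% and 4.95 ± 3.65%. GH1 was the gene with the most counts in 8 of 16 libraries, POMC (which yields adrenocorticotropin and the melanotropins) in 5 and PRL in 3. GH1 never ranked below place 11. PRL stood among the first 10 genes in 11 libraries and at place 358 in HFC replicate 16. These ranks are of counts, which grow with transcript length, so that they do not compare molecules of one gene with those of another.

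In LFC the PRL level ran from 6639 CPM (counts per M counts of a library, with library sizes scaled by TMM factors) in replicate 1 to 81061 CPM in replicate 2, with a median of 27967 CPM. Replicates 3, 4, 6 and 7 lay between 18183 and 29154 CPM, and replicates 5 and 8 stood higher, at 45345 and 67186 CPM. In HFC the level ran from 276 CPM in replicate 16 to 31747 CPM in replicate 9, with a median of 6225 CPM. The highest HFC gland was thus inside the LFC range, and 4 HFC glands, replicates 10, 13, 14 and 16, lay below the lowest LFC gland, at 2673, 3688, 1893 and 276 CPM. All 8 LFC libraries were above the HFC median, and 7 of 8 HFC libraries were below the LFC median. The highest level in the series was 293-fold the lowest. The 4592 PRL counts of HFC replicate 16 made up 0.0250% of its total (95% Wilson interval 0.0243 to 0.0258%), so that depth did not limit the value. Over both genes and all libraries the widest of these intervals reached 0.0159 percentage points to either side, which covers counting error only.

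**Figure D1:**
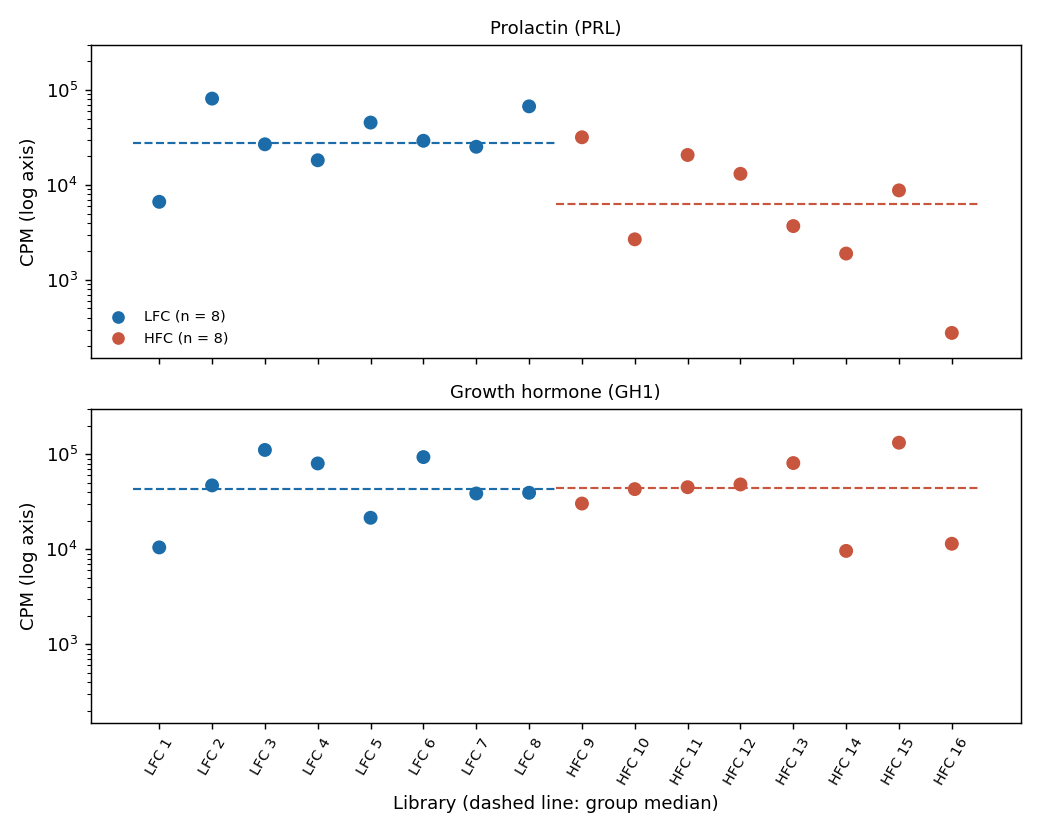
Levels of PRL (upper panel) and GH1 (lower panel) in each of the 16 libraries, in CPM on a log axis, with dashed lines at the group medians. PRL medians were 27967 CPM in LFC and 6225 CPM in HFC, with HFC replicates 10, 13, 14 and 16 below every LFC library, whereas GH1 medians were 43318 and 44142 CPM.

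GH1 levels overlapped almost entirely between the groups. They ran from 10491 CPM in LFC replicate 1 to 111438 CPM in LFC replicate 3, with a median of 43318 CPM, and from 9641 CPM in HFC replicate 14 to 132872 CPM in HFC replicate 15, with a median of 44142 CPM. Of 8 HFC libraries, 4 were above and 4 below the LFC mean of log2 CPM. The highest GH1 level was 13.8-fold the lowest. The glands lowest in GH1 were HFC replicate 14, LFC replicate 1 and HFC replicate 16, and these lay in both groups.

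Both hormone genes varied more than most genes between animals of one group. The biological coefficient of variation, the spread that edgeR attributes to differences between libraries beyond counting, was 90.0% for PRL and 70.3% for GH1, against a median of 30.4% over the 14319 genes tested. These values placed PRL at percentile 98.3 and GH1 at percentile 95.6. POMC was near GH1, at 72.1%. The SD of log2 CPM was 1.14 for both genes in LFC, and in HFC it was 2.21 for PRL and 1.29 for GH1 (n = 8 each), so that the wider spread of PRL lay in HFC.

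The comparison of the groups asked whether the feed conversion of the gilts went with a different level of either hormone gene. The log2 fold change of PRL, HFC against LFC, was -1.86 (SE 0.71), with an unadjusted p of 0.0186 and a Benjamini-Hochberg adjusted p of 0.719 in edgeR's quasi-likelihood test over all genes. PRL therefore did not pass the threshold of an adjusted p of 0.05, and neither did any other gene, with 0% of 14319 genes called. At an unadjusted p under 0.05, 1.53% of all genes were lower in HFC and 4.29% higher, 834 genes in all, and DESeq2 called 20 genes, or 0.0773% of the table, PRL not among them. The log2 fold change of GH1 was -0.14 (SE 0.52, adjusted p = 0.9999 in edgeR). Its sign was not stable, since leaving out LFC replicate 3 gave 0.08.

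On the scale of mean log2 CPM, which gives each gland the same weight, PRL was at 14.85 ± 1.14 in LFC and 12.29 ± 2.21 in HFC (SD, n = 8 each). The difference of -2.57 (SE 0.88) corresponds to a 5.92-fold lower geometric mean in HFC, and an exact permutation test over the 12870 assignments of libraries gave a two-sided, unadjusted p of 0.0087. With the same test, 4.37% of all genes had an unadjusted p under 0.05, 1.82% lower and 2.55% higher in HFC, and adjusted over all genes the p of PRL was 0.9996. In the size of the difference, 1 gene exceeded PRL in the downward direction, TSHB, the thyrotropin subunit, at -2.61 (exact permutation p = 0.170). TSHB was chosen for mention here after this ranking was seen. The GH1 difference was -0.25 (SE 0.61; exact permutation p = 0.684).

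The PRL difference was recomputed without glands that stand apart in other genes. Without HFC replicate 16 alone it was -1.97 (exact permutation p = 0.0165). Without LFC replicate 5 and HFC replicates 13, 14 and 16 together, a choice made after the data were seen, it was -1.28 in 12 libraries, with an exact permutation p of 0.117, and the log2 fold change in edgeR was -1.24. GH1 then differed by 0.10 in mean log2 CPM. Since HFC replicates 13, 14 and 16 hold 3 of the 4 PRL levels below every LFC library, leaving them out makes the difference smaller by construction.

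The ratio of PRL to GH1 counts within a library does not depend on its depth or scaling, and its difference between groups tests whether the PRL difference departs from that of GH1. The ratio was highest in LFC replicate 5, at 2.11, followed by LFC replicates 2 and 8, at 1.72 and 1.70. It was 1.05 in HFC replicate 9, and in these 4 libraries PRL had more counts than GH1. The remaining LFC libraries lay between 0.226 and 0.650. In HFC replicates 10, 13, 15 and 16 the ratio was 0.0620, 0.0455, 0.0660 and 0.0241, and with 0.196 in replicate 14 there were 5 HFC libraries below the lowest LFC value. In HFC replicate 16, GH1 had 41.5 counts for each count of PRL.

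**Figure D2:**
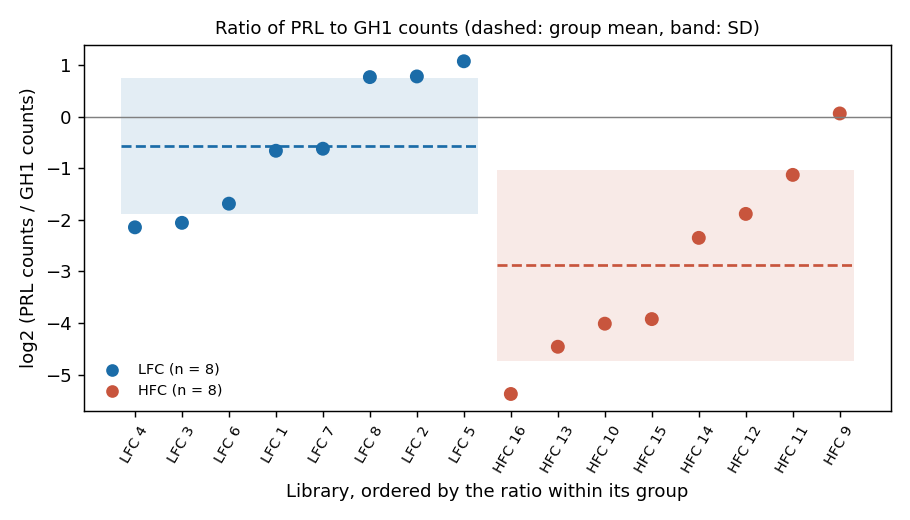
Log2 of the ratio of PRL to GH1 counts in each library, ordered within each group, with the group mean (dashed) and a band of 1 SD to either side. The LFC mean was -0.57 and the HFC mean -2.88, HFC replicates 10, 13, 14, 15 and 16 lay below every LFC library, and the line at 0 marks equal counts.

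The mean log2 ratio was -0.57 ± 1.32 in LFC and -2.88 ± 1.86 in HFC (SD, n = 8 each), a difference of -2.31 (SE 0.81), or 4.98-fold. An exact permutation test gave a two-sided, unadjusted p of 0.0148, for which no share over all genes was computed. The ratio used the same PRL values as the test of PRL above, so it is not separate evidence. In the 12 libraries named above the difference was -1.37, and the exact permutation p was 0.145. Added together, PRL and GH1 took 9.32 ± 4.32% of the counts in LFC and 6.06 ± 3.87% in HFC (SD, n = 8 each), from 1.03% in HFC replicate 14 and 1.06% in HFC replicate 16 to 13.01% in HFC replicate 15 and 14.2% in LFC replicate 3. The summed share differed by -3.27 percentage points, with a two-sided, unadjusted exact permutation p of 0.133. POMC took 2.50 ± 1.64% in LFC and 6.51 ± 6.44% in HFC, and 22.0% in HFC replicate 16. When POMC was left out of the total, the PRL share was 3.78 ± 2.56% and 1.15 ± 1.29%, and the GH1 share 5.74 ± 3.79% and 5.19 ± 3.73%.

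Markers of the other lobes were high in some of the glands with low PRL. PCSK2 and PAX7, a prohormone convertase and a transcription factor of the melanotrophs of the intermediate lobe, were highest in HFC replicates 16, 11, 14 and 15, where PCSK2 reached 2595, 299, 175 and 126 CPM against 2.47 to 27.3 CPM in LFC. The summed level of 5 measured melanotroph markers other than POMC ran from 149 to 265 CPM in LFC and from 163 to 3433 CPM in HFC. It put 4 HFC libraries above the highest LFC library. In LFC most of this sum came from DRD2 and GALNT14, at means of 122 and 85.4 CPM, against 9.92 CPM for PCSK2 and 1.19 CPM for PAX7. Lactotrophs bear DRD2 too, and GALNT14 had a log2 fold change of -0.16 in edgeR, so that the sum is not a measure of melanotrophs alone. PAX7 was at 0 in LFC replicate 5. HFC replicates 10 and 13, however, had PCSK2 at 2.66 and 22.0 CPM, inside the LFC range, together with PRL below every LFC library, and HFC replicate 11 combined PCSK2 at 299 CPM with PRL at 20671 CPM.

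Among the glial markers of the neural lobe, GFAP showed another pattern. GFAP, a filament protein of glia, was at 51.0, 127, 234 and 90.5 CPM in HFC replicates 10, 13, 14 and 16, the 4 glands with PRL below every LFC library, and at 52.0 CPM in LFC replicate 1, the LFC gland with the least PRL. It was also at 51.4 CPM in LFC replicate 5, where PRL was 45345 CPM, and at 29.3 CPM in LFC replicate 7. In the other libraries it did not exceed 6.38 CPM. The summed level of 8 pituicyte and glial markers ran from 235 to 678 CPM in LFC and from 117 to 2162 CPM in HFC. It put 4 HFC libraries above the highest LFC library, and RAX and COL25A1 were at 0 in some libraries. Most of this sum was VIM, at 199 to 592 CPM in LFC and 80.2 to 1868 CPM in HFC. Of the 8 markers, 6 had a log2 fold change above 0 in edgeR and 2 below it, SCN7A (-0.46) and AQP4 (-0.09). Over all 14319 genes tested, 6928 lay above 0. In the 7 libraries named for their GFAP, GH1 was at 10491, 21527 and 38776 CPM in LFC replicates 1, 5 and 7, and at 43125, 81098, 9641 and 11468 CPM in HFC replicates 10, 13, 14 and 16. AVP and OXT, markers of the axons of the neural lobe, summed to 0.105 to 84.2 CPM in LFC and 0 to 129 CPM in HFC. Markers of the neural lobe thus differed widely between libraries of both groups. The part of either lobe in the PRL difference was not tested.

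Across the glands, PRL and GH1 were only loosely related. After centring on the group means, Pearson's r of log2 CPM was 0.46 over 16 libraries (permutation p = 0.0922, 0.185 adjusted over the 18 relations computed) and Spearman's rho was 0.29 (permutation p = 0.297, adjusted p = 0.486). Without HFC replicates 14 and 16, the libraries farthest from the median of PRL, r was 0.06, so that the relation rested on those glands. Within LFC r was 0.33 (exact permutation p = 0.431, n = 8) and within HFC 0.55 (exact permutation p = 0.158, n = 8). Among 10998 genes of sufficient level, GH1 ranked at place 587 in likeness to PRL.

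**Figure D3:**
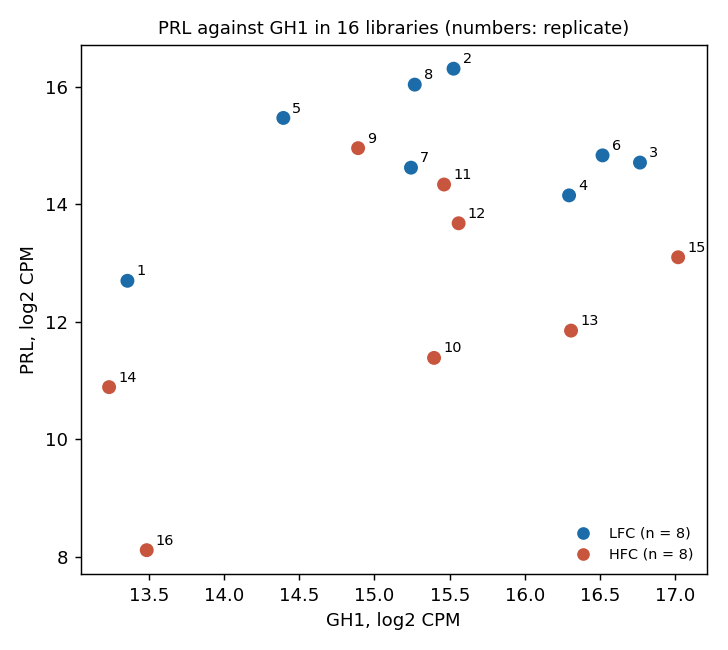
PRL against GH1 in 16 libraries, both as log2 CPM, with the replicate number beside each point. HFC replicates 14 and 16 are low in both genes, and without them the group-centred r drops from 0.46 to 0.06. HFC replicates 13 and 15 hold high GH1 with low PRL.

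GH1 was closely tied to GHRHR, the receptor through which growth hormone-releasing hormone drives somatotrophs. GHRHR was at 24.6 to 114 CPM in LFC, with a median of 39.2 CPM, and at 16.0 to 144 CPM in HFC, with a median of 55.2 CPM. The group-centred r was 0.90 (n = 16) with a permutation p of 1e-05, the smallest that the permutations drawn can give, and an adjusted p of 0.00018, and rho was 0.86 (permutation p = 0.0001, adjusted p = 0.0018). It was 0.87 without LFC replicate 1 and HFC replicate 14, the libraries farthest from the median of GH1. Within LFC it was 0.89 (exact permutation p = 0.0027, n = 8) and within HFC 0.92 (exact permutation p = 0.0025, n = 8), and it lay between 0.87 and 0.93 when any single library was left out. GHRHR itself did not pass the test between groups, with a log2 fold change of 0.02 (SE 0.43, adjusted p = 0.9999 in edgeR).

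POU1F1, which encodes PIT-1, was related to both hormone genes. With GH1 its r was 0.77 (n = 16; permutation p = 0.00137, adjusted p = 0.0123), and 0.66 without LFC replicate 1 and HFC replicate 14, while rho was 0.64 (permutation p = 0.0136, adjusted p = 0.122). With PRL its r was 0.69 (permutation p = 0.00649, adjusted p = 0.0389, n = 16), but 0.44 without HFC replicates 14 and 16, and rho was 0.62 (permutation p = 0.0237, adjusted p = 0.128). The PRL relation was seen within HFC, at 0.87 (exact permutation p = 0.0026, n = 8), more than within LFC, at 0.25 (exact permutation p = 0.539, n = 8), although this difference was not tested. LFC replicate 5, with POU1F1 at 42.6 CPM and PRL at 45345 CPM, lay off the trend of the other glands.

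DRD2 encodes the D2 receptor that carries the dopamine signal to lactotrophs, and melanotrophs bear it too. Over all 16 libraries its r with PRL was -0.0018 (permutation p = 0.996, adjusted p = 0.996), while rho was 0.51 (permutation p = 0.0691, adjusted p = 0.169). HFC replicate 16 had DRD2 at 490 CPM with the lowest PRL of the series, whereas the other 15 libraries had 38.9 to 179 CPM. Without this library, left out after the values were seen, r was 0.90 in 15 libraries, and without HFC replicates 14 and 16, the libraries farthest from the median of PRL, it was 0.92. Within LFC r was 0.91 (exact permutation p = 0.0041, n = 8). Within HFC it was -0.22 with 8 libraries (exact permutation p = 0.600) and 0.91 with 7. HFC replicate 16 was also the library with the most PAX7, at 333 CPM. In the other libraries PAX7 did not exceed 30.9 CPM.

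**Figure D4:**
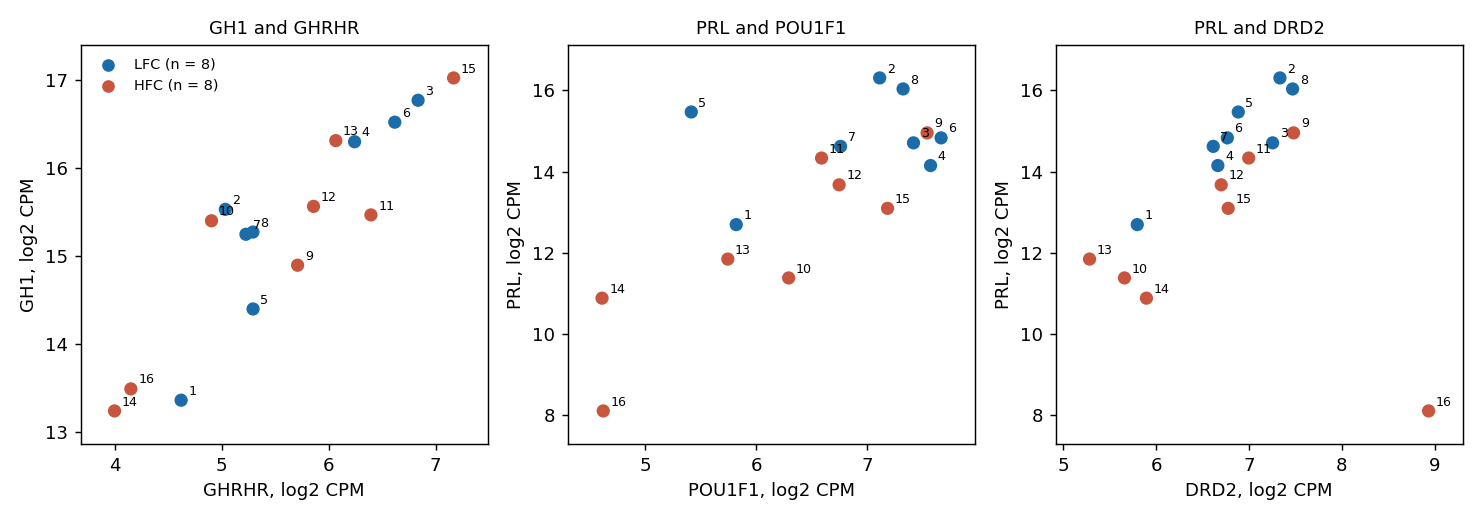
GH1 against GHRHR, PRL against POU1F1 and PRL against DRD2 in 16 libraries, all as log2 CPM, with the replicate number beside each point. The group-centred r was 0.90 for GH1 and GHRHR, 0.69 for PRL and POU1F1, and -0.0018 for PRL and DRD2. For PRL and DRD2 it was 0.90 without HFC replicate 16, at the far right, which was left out after the values were seen.

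None of the other relations of PRL passed an adjusted p of 0.05. With ESR1, the oestrogen receptor, r was 0.35 (permutation p = 0.239, n = 16), from -0.65 within LFC (exact permutation p = 0.0887, n = 8) to 0.74 within HFC (exact permutation p = 0.0469, n = 8). With TRHR, the thyrotropin-releasing hormone receptor, r was 0.41, with PRLR, the prolactin receptor, it was -0.05, and with POMC it was -0.48. For GH1, r was -0.64 with POMC (permutation p = 0.0111, adjusted p = 0.05004, n = 16), and leaving out LFC replicate 1 and HFC replicate 14 moved it to -0.71. With SSTR2, a somatostatin receptor, r was -0.49, and with GHR, the growth hormone receptor, it was 0.24. POMC, PRL and GH1 together filled a large part of some libraries. Whether this bears on the relations with POMC was not tested. With the total counts of the libraries, r was 0.06 for PRL (permutation p = 0.836) and 0.30 for GH1 (permutation p = 0.280, n = 16 each). RAX, a transcription factor of pituicytes, had an r of -0.57 with PRL (permutation p = 0.0466, adjusted p = 0.140, n = 16) and of -0.62 with GH1 (permutation p = 0.0155, adjusted p = 0.0557, n = 16). PCSK2 had an r of -0.44 with PRL (permutation p = 0.173, adjusted p = 0.283, n = 16), which turned to 0.17 without HFC replicates 14 and 16. Its r with GH1 was -0.15 (permutation p = 0.605, adjusted p = 0.726, n = 16).

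The genes whose pattern over the 16 libraries was most like that of PRL, by group-centred Pearson r among 10998 genes with at least 5 CPM on average, included SLC38A11 (0.88), ADARB2 (0.88), AMZ1 (0.86), KCNA6 (0.84), DDX41 (0.84), NEMP2 (0.84) and RD3 (0.84). SLC38A11 belongs to a family of amino acid transporters, KCNA6 forms a voltage-gated potassium channel, and ADARB2 is a member of the family of RNA-editing enzymes. SLC38A11 ran from 3.37 to 63.6 CPM and ADARB2 from 4.40 to 47.9 CPM. None of the 8 leading genes was called between the groups in edgeR, where 0% of all 14319 genes tested were called. The 8 had log2 fold changes from -0.70 for ADARB2 to 0.06 for NEMP2. This order was not firm, since 4 of the 8 remained without LFC replicate 5 and 1 when Spearman's rho was used.

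For GH1 the order was led by TMEM45A (0.95), GALNT9 (0.91), GHRHR (0.90), FAM162B (0.90), SLC27A6 (0.89), EPCIP (0.88), NUP62CL (0.88) and UPF3B (0.88). TMEM45A ran from 3.74 to 24.7 CPM and SLC27A6, a fatty acid transport protein, from 3.89 to 25.4 CPM. Of these names 6 remained without LFC replicate 5 and 5 with rho. An r of at least 0.8 was reached by 29 genes for GH1 and by 18 for PRL, and POU1F1 stood at place 42 for GH1 and 101 for PRL. PRL stood at place 805 in the list of GH1.

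A wider set of 89 genes that act on or in these cells was read from 6 lists of receptors, transcription factors, signalling components, ligands, granule genes and other hormone genes. Of these, 73 were tested, 10 were below the filter on low counts and 6 are not analysed here. In edgeR 0 of 73 were called, beside 0% of all genes tested. At an unadjusted p under 0.05 there were 3 higher and 4 lower in HFC, 7 genes, against 5.82% of all genes, and 25 had a log2 fold change above 0 and 48 below it. Over all genes tested, 6928 lay above 0 and 7391 below. The median log2 fold change was -0.16, beside -0.01 over all genes tested. DESeq2 called 1 of the listed genes, EGF, beside 0.0773% of the table.

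Of 17 tested receptors of somatotrophs and lactotrophs, 13 had a log2 fold change below 0 and 2 of these an unadjusted p under 0.05. Over all genes tested, 7391 of 14319 lay below 0, and 1.53% were lower in HFC with an unadjusted p under 0.05 in edgeR. SSTR3, a somatostatin receptor, was at 7.23 to 26.3 CPM in LFC (median 15.4) and at 2.47 to 15.1 CPM in HFC (median 11.3), a log2 fold change of -0.67 (SE 0.31, adjusted p = 0.850 in edgeR). GALR1, a receptor for galanin, was at low levels of 1.37 to 8.00 CPM in LFC and 0.825 to 2.77 CPM in HFC, with a log2 fold change of -0.91 (SE 0.37, adjusted p = 0.753 in edgeR), and -0.57 without LFC replicate 3. The groups overlapped for both genes, and the highest HFC level of GALR1 was above its LFC median of 2.69 CPM. The receptors that carry the main signals did not pass the test either, with log2 fold changes of 0.25 for DRD2 (SE 0.43; -0.35 without HFC replicate 16), -0.16 for TRHR (SE 0.42), -0.16 for ESR1 (SE 0.32), -0.56 for SSTR2 (SE 0.46), -0.10 for PRLR (SE 0.43) and -0.39 for GHR (SE 0.36). GHSR, the ghrelin receptor, is not analysed here.

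Of 16 tested transcription factors of the lineage, 13 had a log2 fold change below 0, beside 7391 of all 14319 genes tested. An unadjusted p under 0.05 was found for 1 of the 16, beside 5.82% of all genes tested. This was FOXO1, a forkhead factor of somatotroph development, at 17.5 to 33.5 CPM in LFC and 9.73 to 26.5 CPM in HFC, with a log2 fold change of -0.51 (SE 0.21, adjusted p = 0.788 in edgeR). POU1F1 was at 42.6 to 204 CPM in LFC (median 150) and 24.4 to 187 CPM in HFC (median 87.4), a log2 fold change of -0.58 (SE 0.41, adjusted p = 0.9999 in edgeR).

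The 12 tested genes of cytokine receptor signalling, the pathway that growth hormone and prolactin switch on in target cells, were evenly split, with 6 above and 6 below 0 and a median log2 fold change of -0.0038. None had an unadjusted p under 0.05, beside 5.82% of all genes tested in edgeR. Of the 17 ligands and peptides, 8 were below the filter, among them the hypothalamic peptide genes GHRH and SST, and 8 were tested. EGF, an epidermal growth factor, was the one with an unadjusted p under 0.05 and had a log2 fold change of 3.68 (SE 0.95, adjusted p = 0.612 in edgeR, 0.0368 in DESeq2). It was at 1.13 to 2.36 CPM in LFC, and at 23.1, 69.4 and 62.7 CPM in HFC replicates 11, 14 and 16, which were also high in PCSK2 and RAX, while the remaining HFC libraries did not exceed 1.79 CPM.

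Of 17 granule and exocytosis genes, 11 had a log2 fold change below 0, beside 7391 of all 14319 genes tested. SCG2, secretogranin II of dense-core granules, was at 3506 to 12517 CPM in LFC (median 4139) and 1869 to 4506 CPM in HFC (median 2820), a log2 fold change of -0.86 (SE 0.27, unadjusted p = 0.0048 and adjusted p = 0.612 in edgeR), and -0.55 without LFC replicate 2. The groups overlapped, and the highest HFC level of SCG2 was above its LFC median. PCSK2, the melanotroph convertase described above, had a log2 fold change of 5.34 (SE 1.28, adjusted p = 0.612 in edgeR), and 3.21 without HFC replicate 16.

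Of the other anterior hormone genes, POMC had a log2 fold change of 1.36 (SE 0.55, adjusted p = 0.753 in edgeR), and 0.70 without HFC replicate 16. CGA, the subunit shared by thyrotropin and the gonadotropins, was at 14688 to 30124 CPM in LFC (median 23045) and 1689 to 27505 CPM in HFC (median 17435), with a log2 fold change of -0.39 (SE 0.37), and -0.21 without HFC replicate 16. TSHB was at 33.4 to 1548 CPM in LFC (median 362) and at 0.0602 to 829.3 CPM in HFC (median 228), a log2 fold change of -0.72 (SE 1.13). Leaving out LFC replicate 5 gave -0.20 and leaving out HFC replicate 14 gave -1.14. The HFC value of 0.0602 CPM belongs to replicate 16, where PRL was lowest too, but TSHB was also low, at 1.35 and 5.91 CPM, in HFC replicates 11 and 15, where PRL was 20671 and 8763 CPM.

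**Figure D5:**
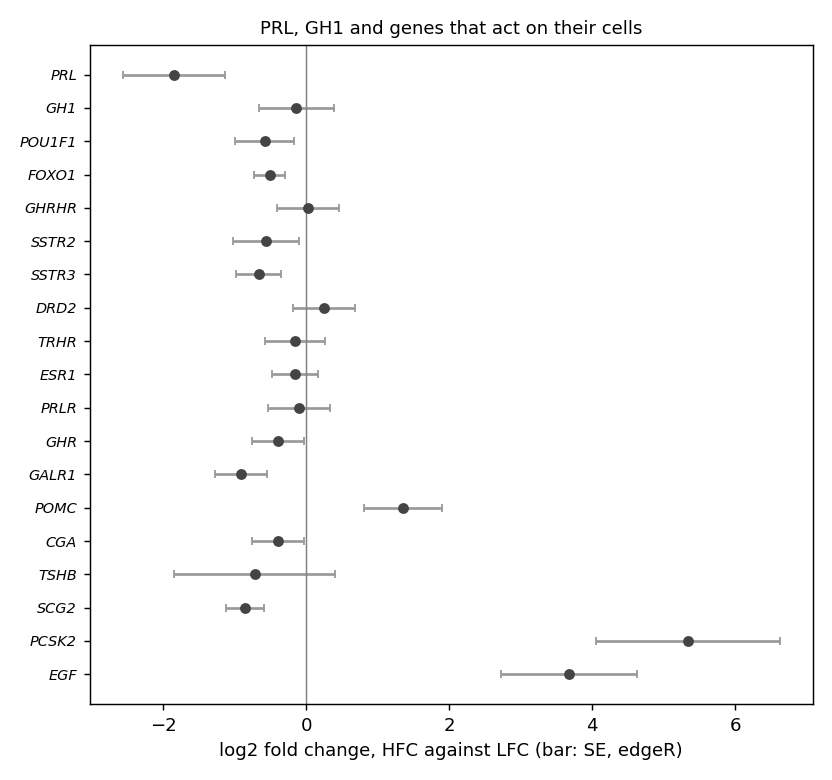
Log2 fold change, HFC against LFC, of PRL, GH1 and the named genes of the 6 lists, with bars of 1 SE on either side (edgeR, 8 libraries per group). PRL was at -1.86 and GH1 at -0.14. PCSK2, EGF and POMC lay farthest to the right, at 5.34, 3.68 and 1.36. No gene shown passed an adjusted p of 0.05 in edgeR, while EGF had 0.0368 in DESeq2.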

How the data were processed

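Per the study's methods, the authors cleaned the reads, aligned them to Sscrofa11.1, using Ensembl annotation, and deposited whole-number counts per gene, with 4 technical repetitions of a library in 1 column. The libraries keep no strand. A second deposited table gave symbols and other annotation, such as gene start and end. Its columns of the authors' comparison (mean, fold, log2 fold, p-value and adjusted p-value) were not used. Symbols came from that table (10091 genes), a table of identifiers (5454) and overlap with RefSeq genes of Sscrofa11.1 (244).

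The count table was fitted with edgeR 4.0.16 in R 4.3.3 (glmQLFit and glmQLFTest, TMM, filterByExpr on group, no covariate), which kept 14319 genes. A gene counted as called when its Benjamini-Hochberg adjusted p did not exceed 0.05 and its fold was 1.3 or more. DESeq2 1.42.0 and limma 3.58.1 (voom) were alternatives. Log2 CPM used a prior count of 2. Group differences of single values were tested by exact permutation, two-sided, with numpy 2.4.6, and are given without an adjustment over the tests of the pair. Wilson intervals came from scipy 1.17.1. Relations were tested by 100000 permutations within groups on group-centred values, and exactly within each group. The scripts were tested on simulated data. Pairs of libraries of a group differed by at least 23.4 in chi-square per degree of freedom (56 pairs), so none was taken as a duplicate. Separate animals gave the libraries.

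PRL, GH1, the gene lists, the tests and the alternatives were chosen with earlier results of these data known. Named genes were PRL, GH1, the list members with an unadjusted p under 0.05, a fixed set of receptors, factors and hormones, the partners of the relations, and the 8 genes most like PRL or GH1. Values of 2 genes that this rule names are not reported here. Of the relations, 6 were added after the values were seen.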

Additional observations from a re-analysis of the deposited data

Results flagged for a closer look

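In 23 measures of PRL, GH1 and the named genes, each group of 8 libraries was checked for a single library far from the others. Of 46 checks, 7 stood out, where chance gives 1 in 20, or 2.3. The checks share libraries and are not separate, so 2.3 is no firm measure for the 7 that stood out. None of these was PRL, GH1, their shares or their ratio.

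In HFC replicate 16, the library with the least PRL, the log2 CPM of POMC was 17.89 (the other HFC libraries lay between 14.48 and 15.98), CGA was at 10.72 (others 13.40 to 14.75) and ESR1 at 3.79 (others 5.44 to 6.75). In LFC replicate 5, where PRL exceeded GH1, GHR was at 1.48 (others 4.10 to 4.75), TRHR at 0.87 (others 2.71 to 3.54) and PRLR at -0.54 (others 1.29 to 2.87). In LFC replicate 2, the library with the most PRL, SCG2 was at 13.61 (others 11.78 to 12.52).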

How the results depend on the processing

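The PRL and GH1 fold changes, the differences in level, ratio and summed share, the correlations of GH1 with PRL and with GHRHR, and the count of listed genes called were recomputed with libraries left out and, where they apply, other tests, scalings, filters and prior counts. The other relations and ratios, the marker sums and the nearest genes were not recomputed in this way, apart from the values given beside them. The log2 fold change of PRL stayed below 0 and uncalled in all 27 alternatives, from -2.59 to -1.24, and with 1 library left out it was lowest (-2.35) when that was HFC replicate 9 and highest (-1.59) when it was LFC replicate 2. That of GH1 ran from -0.53 to 0.0811 in the latter, with its sign turned without LFC replicate 3 (0.0811), LFC replicate 6 (0.00084), HFC replicate 14 (0.02) or HFC replicate 16 (0.01). The PRL difference in mean log2 CPM ran from -2.95 to -1.97 with a library left out, with exact permutation p from 0.0028 to 0.0191, and the difference in the log2 ratio from -2.74 to -1.96, with p from 0.0039 to 0.0286. Without LFC replicate 5 and HFC replicates 13, 14 and 16 together, added after the data were seen because an earlier account of the series found them apart, both lost their p under 0.05, at -1.28 and -1.37, and the GH1 difference turned to 0.10. The GH1 difference ran from -0.55 to 0.0255 with a library left out and turned without HFC replicate 14 (0.0255). The summed share differed by -3.27 percentage points, which leaving out LFC replicate 1 moved to -4.33, HFC replicate 15 to -4.26 and HFC replicate 14 to -2.55. The exact permutation p of this difference was 0.133, and ran from 0.0416 to 0.236 with a library left out. The correlation of PRL and GH1 ran from 0.29 to 0.55 with a library left out and that of GH1 and GHRHR from 0.87 to 0.93. Of the listed genes, 0 were called in edgeR and with each library left out, and 1 in DESeq2. Where a value moved, the cause was not tested. No paired analysis was possible because the labels pair no LFC with an HFC animal, and the gilts were unrelated per the study's methods. Depth did not limit PRL or GH1, but it limits receptors of a few CPM.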

Other observations

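Other ratios within libraries were set beside that of PRL to GH1, after the values were seen. Those of PRL used the same PRL values as the test of PRL above. The log2 ratio of PRL to POU1F1 counts was 7.96 ± 1.23 in LFC and 6.12 ± 1.36 in HFC (SD, n = 8 each), a difference of -1.84 (exact permutation p = 0.0107, 0.0536 adjusted over these 5 ratios). That of PRL to CGA was 0.42 ± 1.34 and -1.48 ± 1.77, a difference of -1.90 (exact permutation p = 0.0326, adjusted p = 0.0816). For GH1, the log2 ratio to POU1F1 was 8.53 ± 0.58 in LFC and 9.002 ± 0.93 in HFC (exact permutation p = 0.251, adjusted p = 0.314), and that to GHRHR was 9.78 ± 0.57 and 9.64 ± 0.52 (exact permutation p = 0.618). The log2 ratio of POMC to GH1 was -1.10 ± 2.11 in LFC and 0.44 ± 2.11 in HFC (exact permutation p = 0.165, adjusted p = 0.275).

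CHGB, secretogranin I, was at 20092 to 27056 CPM in LFC (median 24237) and 10541 to 23354 CPM in HFC (median 19876), so that the groups overlapped. The log2 fold change was -0.32 (SE 0.15, unadjusted p = 0.0506 and adjusted p = 0.857 in edgeR). CHGB was chosen for mention after its values were seen.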
